A study of Mus musculus with 6 samples.

Results

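The genes described here encode the enzymes that write, copy and remove DNA methylation in the mouse genome: Dnmt1, Uhrf1, Dnmt3a, Dnmt3b, Dnmt3l, Tet1, Tet2 and Tet3. They were chosen by function, as 8 of the 21000 protein-coding genes that have a curated RefSeq transcription start site (TSS) on GRCm38 (mm10), with no value in the rule, but with earlier results of these data known, as were the lists of related genes used below. For each gene, the ATAC-seq peaks within 1 kb of a curated TSS and those in the gene span plus 20 kb on each side were collected, which gave 51 of the 41014 listed peaks. Each peak was set beside the binding sites of ZBTB21, a BTB zinc finger protein, and beside chromatin loops that the study grouped by the ZBTB21 peaks and the reduced cohesin peaks in them.

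ATAC-seq, which marks accessible DNA by insertion of adapters with Tn5, was performed on 6 samples in 3 conditions with 2 samples each. The untreated samples are V6.5 cells, a mouse embryonic stem cell (mESC) line that per the labels was grown on irradiated feeder fibroblasts with serum and LIF. The others are ZBTB21-degron mESCs, in which ZBTB21 carries a tag for degradation, given doxycycline and then 0 or 6 h of the auxin IAA. They were not analysed here. The labels of all samples share a treatment text that describes degron cells, while the treatment given for these V6.5 samples is untreated. The study's methods add the inhibitors CHIR99021 and PD0325901 to the medium. Which medium applied to the ATAC-seq samples was not settled. The authors deposited 1 peak list for the untreated condition, with coordinates and a score per peak and no value per sample, so the depth of each library and the spread between the 2 samples were not analysed here, no value below has a replicate error, and no test was made.

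The listed peaks had a median width of 547 bp and scores from 540 to 953 with a median of 696. The score is the authors' own and was read only within the list. A gene without a listed peak is one at which nothing passed the authors' threshold, and this does not show that its DNA was closed. Of 8 embryonic stem cell markers, Pou5f1, Nanog and Zfp42 had a peak within 1 kb of a TSS, while Sox2, Esrrb, Klf4, Tdgf1 and Utf1 had none. Of 8 fibroblast markers, which the feeder cells could bring, Thy1 and Pdgfra had one. A peak at this distance was listed at 28.5% of all protein-coding genes. Both marker counts were close to this share and are no result about cell identity or feeder content. The part of the feeder cells in the results was not tested.

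DNMT1 copies methyl groups onto the new strand after replication, guided by UHRF1, which binds hemimethylated CpG. DNMT3A and DNMT3B place methyl groups on unmethylated CpG, and DNMT3L, which has no catalytic activity of its own, stimulates them. TET1, TET2 and TET3 oxidize 5-methylcytosine, which leads to its removal by dilution or by base excision repair. When grown with serum and LIF, mESCs are known for high TET1 and TET2 activity together with active de novo methylation. Because the medium of the V6.5 samples was not settled, whether this state applies to them is unknown.

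CpG, the letters that the enzymes act on, are unevenly spread over these start sites, also within a gene. Printed are 4 windows of 300 bases, from 250 before to 50 after the start, read 5′ to 3′ along the transcribed strand from RefSeq on GRCm38, with each CpG in capitals. The first pair lies at genes with a peak over the start, and the second pair at genes with none within 1 kb.
Dnmt1, chr9:20952930-20953229, minus strand: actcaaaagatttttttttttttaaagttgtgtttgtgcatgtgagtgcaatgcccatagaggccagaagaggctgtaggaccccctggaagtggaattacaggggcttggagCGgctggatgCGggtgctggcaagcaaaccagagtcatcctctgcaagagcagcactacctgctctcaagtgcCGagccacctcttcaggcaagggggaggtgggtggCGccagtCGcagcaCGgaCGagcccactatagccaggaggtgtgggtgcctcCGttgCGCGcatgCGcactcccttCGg
Uhrf1, chr17:56303087-56303386, plus strand: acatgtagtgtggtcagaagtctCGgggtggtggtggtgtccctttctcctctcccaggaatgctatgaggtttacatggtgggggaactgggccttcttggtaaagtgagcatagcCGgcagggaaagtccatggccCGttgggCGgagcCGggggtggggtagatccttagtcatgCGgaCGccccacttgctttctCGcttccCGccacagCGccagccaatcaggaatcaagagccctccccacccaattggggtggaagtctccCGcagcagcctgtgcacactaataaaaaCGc
Dnmt3l, chr10:78049592-78049891, plus strand: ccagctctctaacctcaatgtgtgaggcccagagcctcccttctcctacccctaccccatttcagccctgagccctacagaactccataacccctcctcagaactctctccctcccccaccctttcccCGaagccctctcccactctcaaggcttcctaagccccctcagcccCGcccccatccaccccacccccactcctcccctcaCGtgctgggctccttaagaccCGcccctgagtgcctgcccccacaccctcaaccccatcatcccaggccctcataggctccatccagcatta
Tet2, chr3:133544341-133544640, minus strand: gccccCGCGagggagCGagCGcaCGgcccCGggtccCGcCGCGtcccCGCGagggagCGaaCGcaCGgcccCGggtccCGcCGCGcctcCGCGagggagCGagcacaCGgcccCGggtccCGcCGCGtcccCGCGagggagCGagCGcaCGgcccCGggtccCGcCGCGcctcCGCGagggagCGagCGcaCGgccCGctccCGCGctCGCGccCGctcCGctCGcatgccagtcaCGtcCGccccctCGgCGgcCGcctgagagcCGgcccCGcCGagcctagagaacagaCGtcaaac
The Dnmt1 and Uhrf1 windows held 12 CpG each, Dnmt3l held 4 and Tet2 held 57, against a median of 7 over the 32851 RefSeq promoter windows of this length. The other Dnmt1 windows held 2 and 33 CpG, the latter under the same peak, and the window at the second Uhrf1 start held 33.

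A peak lay within 1 kb of a curated TSS at 2 of the 8 genes, Dnmt1 and Uhrf1. Over all protein-coding genes the share was 28.5%, so the count at the 8 genes was close to the background and is no result about them. Counted by TSS, 5 of the 17 curated start sites of the 8 genes (29.4%) had a peak within 1 kb, against 26.8% over all. These 5 starts share 3 peaks at 2 genes, so they are not independent. None of the de novo or oxidizing enzymes had a listed promoter peak at this distance. Just inside the distance was the upstream Dnmt1 start, with a peak edge at 897 bp, and just outside was Dnmt3l, with a peak edge at 1053 bp.

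**Figure D1:**
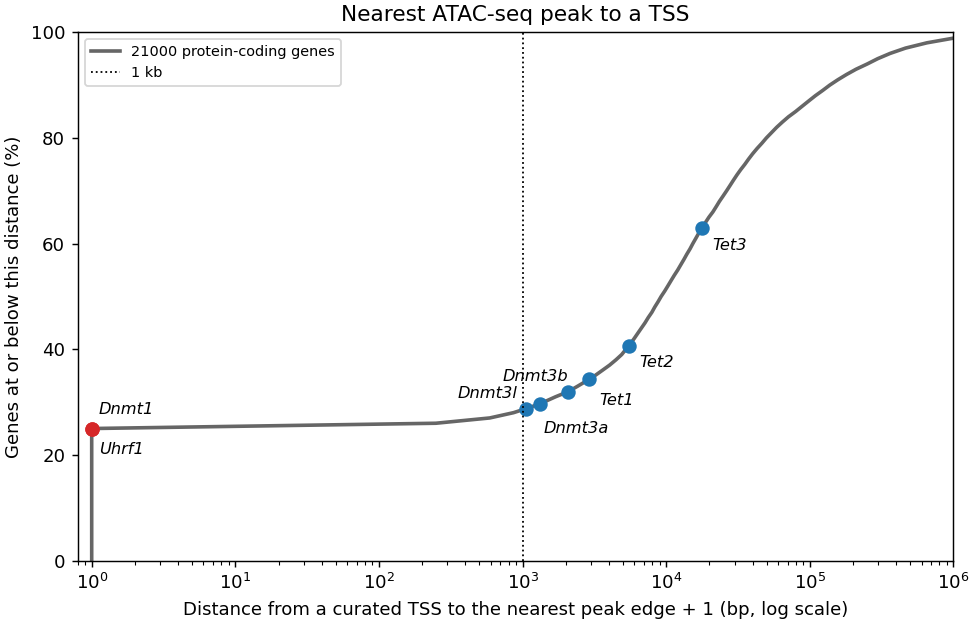
Share of 21000 protein-coding genes (y axis, %) whose nearest curated TSS lies at or below a given distance from a peak edge (x axis, bp plus 1, log scale), as a grey line. The points are the 8 genes placed on that line, red within 1 kb (dotted line) and blue beyond it: Dnmt1 and Uhrf1 lie at 0 bp, Dnmt3l, Dnmt3a and Dnmt3b between 1053 and 2070 bp, and Tet3 farthest at 17704 bp.

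From the curated RefSeq start site nearest to a peak, the distance was 0 bp at Dnmt1 and Uhrf1, 1053 bp at Dnmt3l, 1323 bp at Dnmt3a and 2070 bp at Dnmt3b. It was 2896 bp at Tet1, 5492 bp at Tet2 and 17704 bp at Tet3. Other starts of the same genes lay farther from a peak, such as the long-isoform starts of Dnmt3a at 9828 and 10008 bp and the Dnmt3l starts at 5878 and 6546 bp. The median over all protein-coding genes was 9226.5 bp, and of the 8 only Tet3 lay beyond it. Widening the distance to 2.5 kb took in all 3 de novo genes and gave 5 of 8 (62.5%), where 33.2% of all genes had a peak. At 5 kb Tet1 was added and at 10 kb Tet2, where the shares over all genes were 39.3% and 51.6%. These counts rest on only 8 genes, and their differences from all genes were not tested.

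Dnmt1 (chr9:20907206-20959888, minus strand) has 3 curated start sites, each with a peak within 1 kb. The peak chr9:20952336-20953510 spans the starts at 20952979 and 20952623, is 1175 bp wide and has a score of 711. Among all peaks within 1 kb of a protein-coding TSS it stood at percentile 87.1 by width and 41.3 by score, so it was broad with a score below the middle of promoter peaks. The upstream start at 20959888 had the peak chr9:20958459-20958991 in the first intron, 533 bp wide with a score of 550, at percentile 2.41 by score. The highest score at Dnmt1 was not at a start but in the first intron, at chr9:20943617-20944420 (804 bp, score 795), 8203 bp downstream of the nearest start. A wide peak of 1194 bp with a score of 733 lay upstream, at chr9:20978334-20979527, and a narrow one of 315 bp with a score of 618 in intron 27.

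Uhrf1 (chr17:56303337-56323486, plus strand) had 1 peak in its own span, over the start at 56303337. This peak, chr17:56302971-56303658, is 688 bp wide and has a score of 866, at percentile 82.8 by score and 39.1 by width among promoter peaks. It was thus narrower than the Dnmt1 promoter peak and higher in score. The second start, at 56304313, lies 655 bp past the edge of this peak and had no peak over it. The other 7 peaks of the Uhrf1 interval lay in its flanks, and 3 of them at start sites of neighbours. Plin3, which encodes a lipid droplet protein, had peaks with scores of 773 and 903, and Kdm4b, a histone H3 lysine 9 demethylase gene, had one with a score of 885. The rest of the flank peaks lay within the spans of Plin3 and Kdm4b.

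Dnmt3a (chr12:3801559-3914443, plus strand) is the longest of the 8 genes and had 11 peaks in its interval, 6 of them in the gene. Its curated starts at 3806980 and 3807160 belong to the long isoforms, and the nearest peak to them lay 9828 bp downstream of the latter (chr12:3816988-3817354, 367 bp, score 717). The start at 3891744 belongs to the shorter isoform Dnmt3a2, known as the main form in mESCs. A peak of 720 bp with a score of 759 lay 1323 bp before it, at chr12:3889702-3890421, and another of 619 bp with a score of 723 lay 6218 bp before it. Both also lay within the span of another annotated gene. The highest and widest peak of the interval was far upstream, at chr12:3781005-3781986 (982 bp, score 823), 24994 bp before the first start. It lay within the span of a neighbouring gene. A peak at chr12:3905468-3905998 (531 bp, score 570) overlapped a coding exon.

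Dnmt3b (chr2:153649411-153687730, plus strand) had 4 peaks, with scores of 584, 756, 704 and 750 along the gene. The nearest to its curated start at 153649449 was chr2:153651519-153651975 in intron 2, 457 bp wide with a score of 756 and 2070 bp downstream. The next, chr2:153660540-153661276 (737 bp, score 704), lies in the same intron and spans starts at 153660761 and 153660762 that RefSeq gives only as predicted transcripts. With predicted transcripts included, Dnmt3b would be the third gene with a promoter peak. Downstream of the gene, the peak chr2:153694540-153695012 had a score of 750.

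Dnmt3l (chr10:78042287-78063622, plus strand) had 3 peaks. The peak in the gene, chr10:78048165-78048789, is 625 bp wide with a score of 777 and lies 1053 bp before the start at 78049842, inside intron 2 of the longest transcript. The other peaks lay 13679 bp upstream of the gene's first start (574 bp, score 693) and downstream of the gene (555 bp, score 718). The downstream one lay within the span of another annotated gene. Of the 3 scores, 2 exceeded the list median of 696.

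Tet1 (chr10:62804570-62887469, minus strand) had 7 peaks, of which 3 lay upstream and 4 in introns. The upstream peaks lay 5113, 9499 and 15406 bp before the start at 62887324 and had scores of 830, 752 and 781. Each of these upstream peaks lay within the span of another annotated gene. The nearest of these, chr10:62892437-62893389, is 953 bp wide and had the highest score of the 18 peaks listed for the TET genes. In the gene, intron 1 held a peak of 380 bp with a score of 731, 2896 bp downstream of the start, and intron 2 held a peak of 612 bp with a score of 825. The intron 1 peak also lay within the span of another annotated gene. The 2 peaks of intron 3 were lower, with scores of 619 and 675. Upstream and downstream are counted here from the RefSeq start. The GENCODE M21 basic annotation instead places Tet1 starts at 62899118 and 62880014, with no peak within 1 kb of either. From the start at 62899118, the upstream peaks with scores of 830 and 752 would lie downstream.

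Tet2 (chr3:133463677-133545136, minus strand) had 8 peaks, and 4 of them lay in intron 1. The widest of the 51 peaks was among these, chr3:133533041-133534432, with 1392 bp and a score of 821, 9958 bp downstream of the start at 133544390. The others in intron 1 had widths of 928, 932 and 324 bp and scores of 669, 786 and 559. The remaining 4 peaks, upstream, in intron 2, in exon 3 and downstream, were 195 to 588 bp wide with scores of 587 to 615. Tet2 therefore had the lowest median score of the 8 genes, 613.5, beside the intron peak with 821. Repeats, as masked in the reference, covered 79.3% and 59.3% of the intron 1 peaks at chr3:133515620-133515943 and chr3:133518607-133519538, where the median of the list was 10.9%.

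Tet3 (chr6:83362373-83457208, minus strand) had the fewest peaks for its length, 3 in an interval of 134.836 kb. Those in intron 3 lay at chr6:83423693-83423974 (282 bp, score 591) and chr6:83421593-83422494 (902 bp, score 810), 17704 and 19184 bp downstream of the start at 83441678. The third lay downstream of the gene (533 bp, score 772), within the span of another gene. No peak was listed upstream of Tet3.

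**Figure D2:**
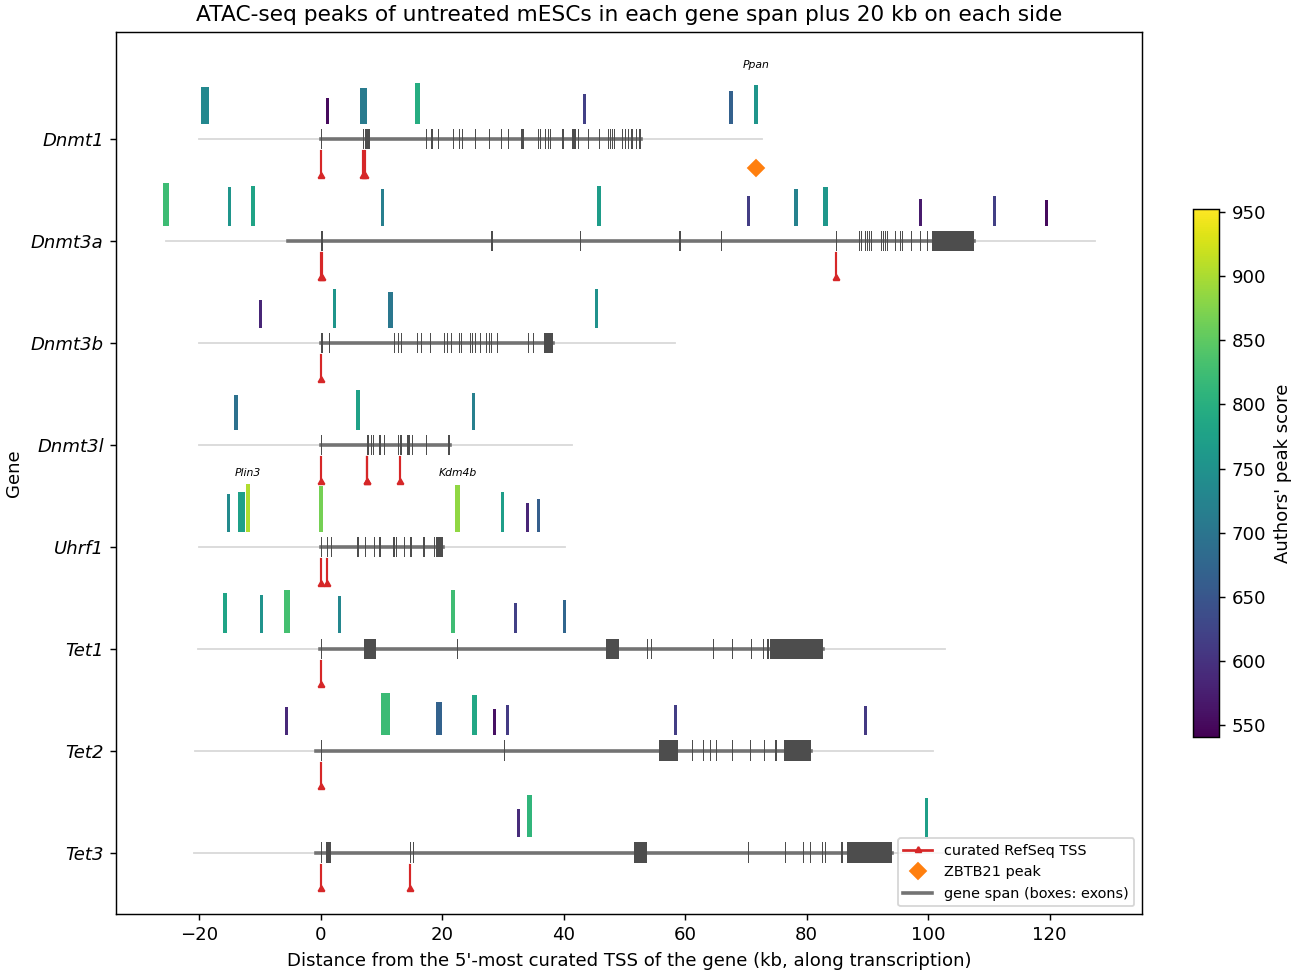
Map of the 8 gene intervals (one line per gene), with distance from the 5′-most curated TSS along transcription on the x axis (kb). Thick grey lines are gene spans with exons as boxes, red marks are curated TSSs, and bars are the 51 ATAC-seq peaks, taller and yellower with higher score. Bars stand over a start only at Dnmt1 and Uhrf1, and the single ZBTB21 peak (orange diamond) lies at the Ppan start downstream of Dnmt1.

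All 8 genes had at least 1 peak in the span plus 20 kb on each side, as did 74.8% of all protein-coding genes. The number of peaks rises with the length of the interval, so it was also expressed per 100 kb. Uhrf1 had 13.3 peaks per 100 kb, at percentile 99.0 of all genes, and Dnmt1 had 7.55, Dnmt3a 7.19 and Tet2 6.59. Tet1 had 5.70, Dnmt3b 5.11 and Dnmt3l 4.89, and Tet3 had 2.22, at percentile 46.9. The median over all genes was 2.39, with quartiles of 0 and 4.95. The high value of Uhrf1 rests on its flanks, since only 1 of its 8 peaks overlaps the gene. Peaks covered 8.53% of the Uhrf1 interval, 5.70% of that of Dnmt1 and 1.27% of that of Tet3.

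**Figure D3:**
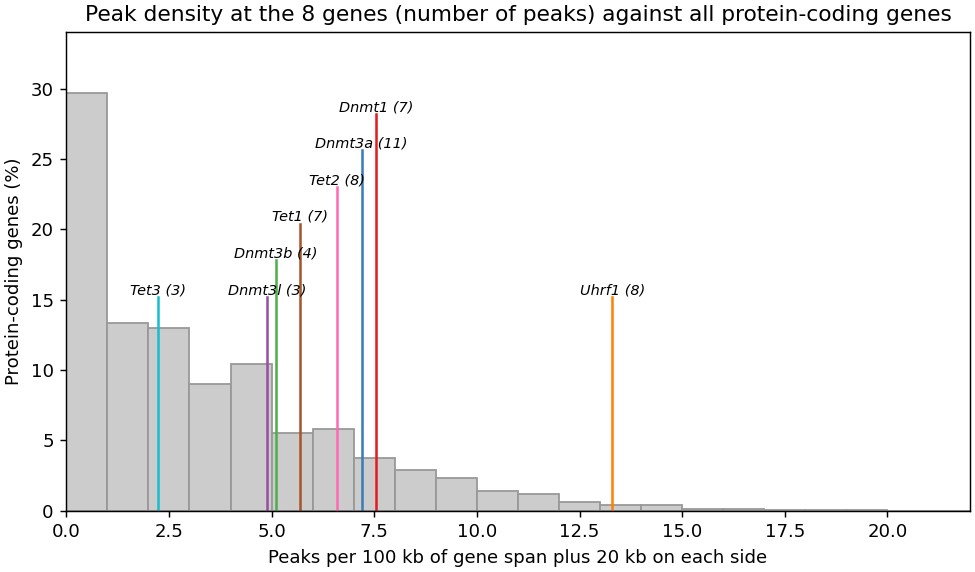
Peaks per 100 kb of gene span plus 20 kb on each side (x axis) for all protein-coding genes (grey bars, % of genes on the y axis). Coloured lines mark the 8 genes, with their number of peaks in brackets and with heights that carry no value: Tet3 lies at 2.22, below the median of 2.39, and Uhrf1 at 13.3.

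Most of the 51 peaks were not at start sites. By place in the RefSeq annotation, 22 lay in introns, 13 upstream and 12 downstream of the gene, 2 over a coding exon and 2 over a curated start. Some of those upstream, downstream or in introns lay within the span of another gene. More than 1 kb from any curated TSS were 44 of the 51 (86.3%), against 84.4% of the list. These 44 had a median width of 516.5 bp and a median score of 720.5, and the 34608 such peaks of the list had 521 bp and 690. Above the list's median score were 31 of the 51 peaks (60.8%), against 49.8% of the list, and 7 lay in the highest decile of scores. The highest median scores were those of Tet3 with 772 and Uhrf1 with 771.5, followed by Tet1 with 752.

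**Figure D4:**
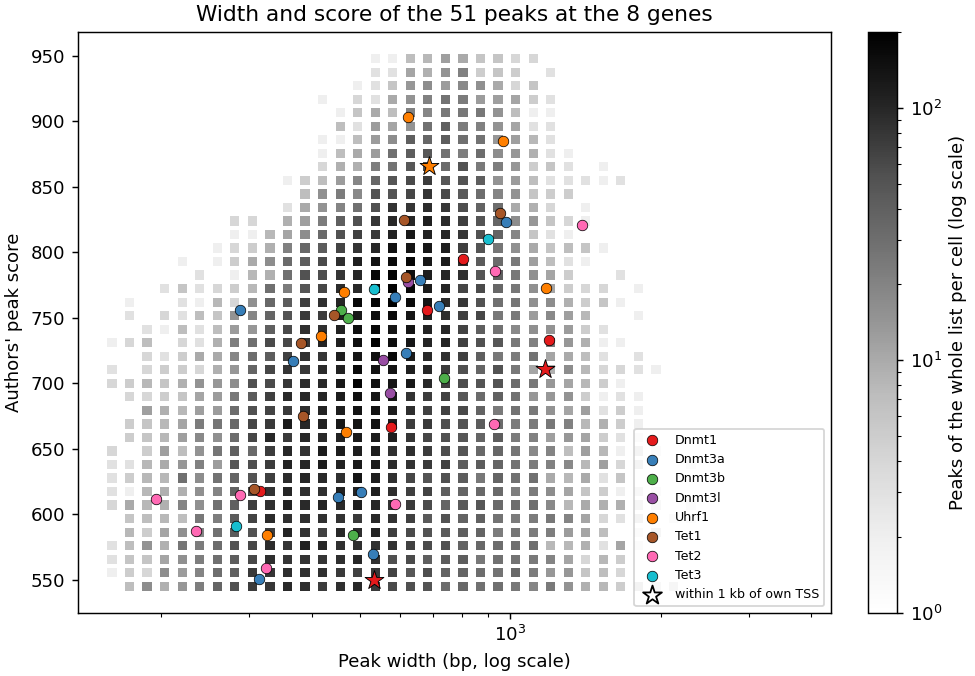
Width (x axis, bp, log scale) and authors' score (y axis) of the 51 peaks, coloured by gene, over the whole list (grey squares, darker for more peaks). Stars are the peaks within 1 kb of a start of their own gene: those of Dnmt1 have scores of 550 and 711 and that of Uhrf1 has 866, while the widest point is the Tet2 intron peak of 1392 bp.

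CpG content differed widely between the start sites and did not order them by the presence of a peak within 1 kb. It was measured in 1-kb windows around each TSS as the ratio of observed CpG to the number that the C and G content would give. The ratio was highest at the long-isoform starts of Dnmt3a (0.955 and 0.989), followed by Tet2 (0.922), the second Uhrf1 start (0.839), Dnmt3b (0.834) and the first Tet3 start (0.819). These are the 6 starts of the 8 genes in the highest quintile of all TSSs. Only the Uhrf1 start among them had a peak within 1 kb, with its edge 655 bp away. Over all genes, 33.6% of the starts in that quintile had one. In the middle quintile were the downstream Dnmt1 starts (0.594 and 0.621), the first Uhrf1 start (0.552), the second Tet3 start (0.538) and the Dnmt3a2 start (0.498). Peaks were listed at 3 of these 5, those of Dnmt1 and Uhrf1, where the share over all genes was 37.5%. These 3 are the only starts of the 8 genes with a peak over them, and the Dnmt1 ones share a single peak. At the low end, the upstream Dnmt1 start had a ratio of 0.0588 and still had its peak at 897 bp, while the 4 Dnmt3l starts had ratios of 0.175 to 0.288 and none. The upstream Dnmt1 start and 2 of the Dnmt3l starts are in the lowest quintile, where 5.73% of all starts had a peak, and the other Dnmt3l starts are in the next, where 21.5% had one. Tet1 stood alone in the next to highest quintile, with 0.709 and no peak within 1 kb.

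The peaks away from start sites were mostly poor in CpG. The median ratio of the 44 was 0.213, against 0.223 for such peaks of the list and 0.670 for peaks within 1 kb of a protein-coding start. Exceptions were the upstream Dnmt3a peak chr12:3791859-3792146, with a ratio of 0.785, and the peak downstream of Dnmt3b, with 0.646, which were singled out after their values were seen.

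**Figure D5:**
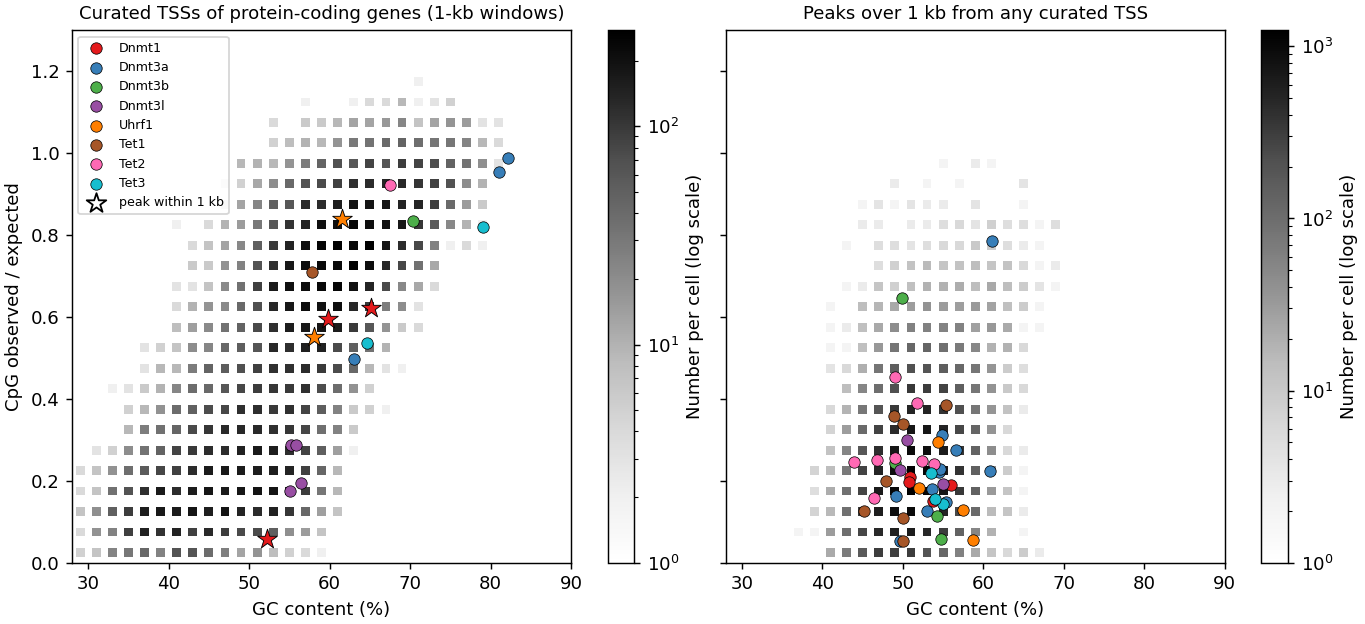
GC content (x axes, %) and CpG observed over expected (y axis) of 1-kb windows around curated TSSs (left) and of peaks over 1 kb from any curated TSS (right). Points are those of the 8 genes over all TSSs or all such peaks (grey squares, darker for more), and stars are starts with a peak within 1 kb, which span ratios from 0.0588 to 0.839. Starts with a peak over them span only 0.552 to 0.621.

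Short motifs were searched on both strands in the 15 promoter windows that the RefSeq table holds for the 8 genes. The windows of the Tet3 start at 83456392 and the Dnmt3l start at 78049959 were not analysed here. The windows of the long-isoform Dnmt3a starts overlap, so they share GC boxes. The GC box GGGCGG was present in 12 of 15, against 35.7% of all promoter windows, and CCAAT in 5 of 15, against 37.4%. The background was not matched for GC or CpG content, and several of the 15 windows belong to the same gene. The share with a GC box is therefore no result about these genes. TATAAA, the octamer ATTTGCAT, AAGGTCA and TGANTCA had no match in these windows, where the shares over all were 13.6%, 1.74%, 4.72% and 7.81%. The E2F letters TTTCGCGC, which occur in 0.323% of all windows, were found at Dnmt1 and at Uhrf1, and TTTGGCGC, in 0.514% of all, was found at Dnmt1. E2F factors drive genes of DNA replication, and the matches are shown with their surroundings because they fall at the only 2 genes with a promoter peak. They were singled out after they were seen. The motif is in capitals (reversed in the first line), the sequence is that of the transcribed strand, and positions count from the start, with the first base before it as -1.
Dnmt1, -219 to -212 from 20952623, chr9:20952824-20952853, minus strand: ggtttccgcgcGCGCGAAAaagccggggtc
Dnmt1, 33 to 40 from 20952623, chr9:20952574-20952601, minus strand: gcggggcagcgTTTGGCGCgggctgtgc
Uhrf1, -185 to -178 from 56304313, chr17:56304117-56304146, plus strand: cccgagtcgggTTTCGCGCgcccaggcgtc
Both Dnmt1 matches lay inside its promoter peak, and the Uhrf1 match lay at the second start, outside the peak. A match of letters is not a measured site.

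The centres of the 51 peaks were searched in the same way, over 300 bases each. The octamer, the letters that POU factors such as OCT4 bind, was found in 2 of the 51 (2.85% of all peak centres), upstream of Tet1 and in intron 2 of Tet2. AAGGTCA, the extended response element of nuclear receptors such as ESRRB, was found in 3 of the 51 (7.47% of all), at Tet1, at Tet3 and at the peak before the Dnmt3a2 start. TGANTCA, the AP-1 letters, were found in 6 of the 51 (11.3% of all), and CCAAT in 19 (33.2% of all). The counts are small and were given as a description. Shown are upstream Tet1 peaks, one with the octamer and one with AAGGTCA at 2 places, and the centre of the widest peak, in intron 1 of Tet2, with all matches to the searched letters or to their reverse in capitals, on the plus strand of GRCm38.
Tet1 upstream peak with the octamer, chr10:62902888-62903187: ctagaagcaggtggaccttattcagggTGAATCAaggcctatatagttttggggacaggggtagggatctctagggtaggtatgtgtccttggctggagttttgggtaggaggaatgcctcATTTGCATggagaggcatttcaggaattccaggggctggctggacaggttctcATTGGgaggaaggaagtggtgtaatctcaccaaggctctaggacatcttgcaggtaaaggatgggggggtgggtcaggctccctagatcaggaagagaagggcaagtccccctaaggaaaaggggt
Tet1 upstream peak with AAGGTCA, chr10:62896894-62897193: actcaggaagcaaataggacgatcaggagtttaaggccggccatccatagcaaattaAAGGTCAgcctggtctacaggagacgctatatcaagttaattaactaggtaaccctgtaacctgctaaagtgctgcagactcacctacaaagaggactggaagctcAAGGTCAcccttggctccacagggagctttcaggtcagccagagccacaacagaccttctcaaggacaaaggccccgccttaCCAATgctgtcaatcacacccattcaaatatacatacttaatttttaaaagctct
Tet2 intron 1 peak, chr3:133533586-133533885: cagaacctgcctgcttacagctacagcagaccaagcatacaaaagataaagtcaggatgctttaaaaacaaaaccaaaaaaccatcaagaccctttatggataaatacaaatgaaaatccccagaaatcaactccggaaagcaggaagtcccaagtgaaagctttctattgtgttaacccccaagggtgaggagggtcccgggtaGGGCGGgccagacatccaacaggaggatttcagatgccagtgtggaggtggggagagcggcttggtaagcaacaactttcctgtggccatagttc
The octamer peak (618 bp, score 781) also held TGAATCA and a reversed CCAAT, and its central 300 bases held 0 CpG. The Tet2 centre held the GC box alone.

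The study's supplement lists 1827 ZBTB21 peaks in mESCs. They were measured in ZBTB21-degron mESCs through a GFP tag on ZBTB21, while the ATAC-seq list is of untreated V6.5 cells. Of the 51 ATAC-seq peaks 1 overlapped a ZBTB21 peak, a share at the 1.98% of the whole list. This peak, chr9:20887876-20888556 (681 bp, score 756), lies downstream of Dnmt1 at the start of the neighbouring gene Ppan, which encodes a ribosome biogenesis factor. It overlaps the ZBTB21 peak chr9:20887722-20888883. None of the 8 genes had a ZBTB21 peak within 1 kb of a TSS, where 6.13% of all protein-coding genes had one. At that share, an absence among 8 genes is no result about them. The nearest ZBTB21 peak to a start lay 33.0 kb away at Tet1, 41.9 kb at Dnmt1, 46.5 kb at Uhrf1 and 49.9 kb at Tet3. It lay 67.6 kb away at Dnmt3a, 91.6 kb at Dnmt3b, 189 kb at Dnmt3l and 860 kb at Tet2.

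The loops comprised 500 ZBTB21-responsive and 500 less-responsive ones with anchors of 25 kb. They are a part of the loops that the study called, and the rest were not analysed here. The study called loops in ZBTB21-degron mESCs, untreated or given IAA, and not in the V6.5 cells of the ATAC-seq list. Both classes came from loops longer than 500 kb, as the top and the bottom of a ranking by signal at ATAC-seq peaks inside the loops. The responsive class was chosen for holding both ZBTB21 peaks and cohesin peaks that fell on ZBTB21 loss, and the other for holding neither. Loop class and ZBTB21 peaks are therefore not independent. None of the 8 genes overlapped a responsive loop, against 16.2% of all protein-coding genes, and none overlapped a less-responsive loop, against 6.25%. With only 8 genes, an absence at such shares is no result about them. The nearest was a responsive loop that ended 0.0994 Mb before Dnmt3b, and the next a responsive loop 0.640 Mb from Dnmt1. At the other 6 genes the nearest loop of either class lay at least 1.15 Mb away.

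Genes that work with the 8 were counted from lists by role, and 14 of 44 (31.8%) had a peak within 1 kb of a TSS, near the 28.5% of all genes. Of 6 partners of maintenance methylation only Pcna, the replication clamp that brings DNMT1 to the fork, had one, with a score of 818, and it also had a ZBTB21 peak. None of 8 methyl-CpG readers had one. Of 8 base excision repair genes 3 had one, the highest at Xrcc1 with 878, and Neil1, a glycosylase gene, had a ZBTB21 peak without a listed ATAC-seq peak. Of 11 regulators of writers and erasers 3 had one, the highest at the histone methyltransferase gene Setdb1 with 893. Cxxc5 and Kdm2b, both of CXXC proteins, had a ZBTB21 peak and no listed ATAC-seq peak at a start. Of 5 genes for S-adenosylmethionine, the methyl donor of the DNMT enzymes, 3 had one, with the highest at Mtr (926) and none at Mat2a and Ahcy. Of 5 isocitrate dehydrogenase genes, which supply the 2-oxoglutarate that TET enzymes use, 4 had one, with the highest at Idh1 (910), none at Idh3b and a ZBTB21 peak at Idh3g. Trdmt1, an RNA methyltransferase gene of the same family, had none.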

How the data were processed

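ATAC-seq was performed by the authors on 2 untreated V6.5 mESC samples and on 4 degron samples, which were not used here. The score of each peak in the deposited list is the authors' own, and the smallest, 540, is what an IDR of 0.05 gives on the scale of the IDR software, a reading that rests on the values alone. Per the labels, libraries were size selected for mono- and dinucleosome fragments. The submitters' processing notes name cutadapt 2.6, Bowtie2 2.3.5.1 and MACS2 2.1.1 and the build mm10. How ATAC-seq peaks were called, pooled and filtered, and whether cut sites were shifted for Tn5, is not given in the sources used here. Depth per sample is unknown, so no interval is given.

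Peaks were matched to curated RefSeq start sites of GRCm38 (the assembly that mm10 names), to gene spans plus 20 kb, to mESC ZBTB21 peaks and to loops (both from the study's supplement) by an overlap of at least 1 bp. Sequences came from RefSeq, whose promoter table matched all 8 genes. Scripts ran in Python 3.11.15 (pandas 2.3.3, numpy 2.4.6, pysam 0.24.0). The look-ups were tested on simulated intervals, where 0 of 500 differed from a direct search. All results are descriptions of 1 list. Named were the 8 genes, genes with a start within 1 kb of a listed peak, and, in each list by role, the gene with the highest-scored promoter peak, those with none where 3 or fewer, and those with a ZBTB21 peak, of which 1 is not reported here. The members and the lists were chosen with earlier results of these data known. Dnmt3c has no entry under that symbol and was not analysed here.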

Additional observations from a re-analysis of the deposited data

How the results depend on the processing

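Of 32 alternatives over 7 results, 28 left the value within 1.5 times of that reported or, for widths and scores, within the spread, and 4 did not. That spread was the standard deviation over the promoter peaks of only 2 genes, with medians of 931.5 bp and a score of 788.5. The alternatives for widths and scores drew mostly on the same peaks, so their staying within the spread says little. The number of genes with a promoter peak was 2 within 1 kb, 5 within 2.5 kb and 6 within 5 kb. The number of peaks at the 8 genes was 51 with flanks of 20 kb, 26 in the gene spans alone and 31 when only peaks above the median score were counted. Both changes follow from how the alternatives are made, since wider windows take in more peaks and stricter ones fewer. With predicted RefSeq transcripts 3 genes had a promoter peak, and with GENCODE M21 basic start sites, an alternative chosen after seeing the data, 2 had one. The ZBTB21 overlap was 1 peak and the loop overlap 0 genes under each alternative run for them. No paired analysis was possible because the list pools the untreated samples and no result comes from a test. For the same reason no replicate could be left out. A single list gives no spread, depth or signal below the authors' threshold, so the absence of a listed peak is a limit of detection.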
